A study of Homo sapiens with 4 samples.

Results

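The genes described here encode the SR proteins and the heterogeneous nuclear ribonucleoproteins (hnRNPs), 2 families of RNA-binding proteins that set splice site choice. They were chosen by symbol alone, as the genes named SRSF followed by a number, TRA2A, TRA2B and the genes whose symbol starts with HNRNP. Of 19901 protein-coding genes in the count table, 41 were taken by this rule, 14 SR genes and 27 HNRNP genes. Nascent RNA was measured by TT-Seq, in which new transcripts take up 4-thiouridine (4sU) during a short pulse and are then purified, in the colon cancer cell line HCT116. The cells were a KAP1 dTAG line grown from 1 sorted cell, in which the endogenous KAP1 (TRIM28) protein carries a degron tag at its C-terminus, so that DMSO-treated cells also carried the tag on KAP1. Cells in medium with 7% serum received DMSO or the degrader dTAG for 8 h, with a 4sU pulse of 500 μM for 10 min, and each condition had 2 biological replicates. The comparison asked whether loss of KAP1 changes transcription in homeostatic, unstimulated cells.

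SR proteins carry RNA recognition motifs and a domain rich in arginine and serine, bind exonic enhancers and recruit the spliceosome to nearby splice sites. Most hnRNPs coat nascent transcripts through RNA recognition or KH domains, and many of them oppose SR proteins at the same exons. Both families are abundant in dividing cells, and many members limit their own amount by splicing in a poison exon that sends the transcript to nonsense-mediated decay.

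Counts on genes were between 93105627 and 102314741 per library. All 6 epithelial markers checked had between 463 and 43667 counts in each library, whereas the 3 blood markers had between 0 and 3. The 3 endothelial markers had between 2 and 217 counts and the 4 fibroblast markers between 0 and 538, with COL1A2 at 0 in every library. The RNA of the targeted gene, TRIM28, was 61.6 and 69.7 CPM (counts scaled to library size) with DMSO and 53.5 and 47.9 CPM with dTAG, a log2 fold change of -0.37 ± 0.092 (SE) with an adjusted p of 0.019 in edgeR's quasi-likelihood test. Since dTAG removes the protein, this RNA level does not check the treatment. With library sizes set by the totals of ERCC spike-in RNAs, the TRIM28 value was 0.28, with GC and length trends removed it was -0.10 (adjusted p = 0.190), and its call was lost in 7 of 16 alternative analyses. CPM values are normalized by the trimmed mean of M-values (TMM) and are therefore relative to other genes, so that a change shared by all genes is not seen in them. In bulk RNA a change in cell number and a change in RNA per cell cannot be told apart.

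Of the 41 genes, 35 had at least 50 counts in all 4 libraries and were tested, 13 SR genes and 22 HNRNP genes. The other 6 were almost silent or not countable. SRSF12, a relative of SRSF10, had 11 and 9 counts with DMSO and 6 and 4 with dTAG. Among the copies of HNRNPC, HNRNPCL1 had between 5 and 18 counts, HNRNPCL2 between 0 and 7 and HNRNPCL4 between 0 and 2. The copy HNRNPCL3 had 0 in every library. HNRNPUL2 also had 0 in every library, but its whole interval lies inside the same-strand read-through gene HNRNPUL2-BSCL2, and all 436 genes placed inside a gene of the same strand had 0 counts. Its value is therefore not a measure of its transcription. On the opposite strand 121 of 608 enclosed genes (19.9%) had 0 counts and outside other genes 1894 of 18857 (10.0%), so counting appears to have used strand. Members that overlap a gene on the other strand are HNRNPA2B1, HNRNPAB, HNRNPH3, HNRNPU, HNRNPUL1, HNRNPUL2-BSCL2, SRSF2 and SRSF9, and none of the partners that were tested was called. The same rule of counting removed reads from parts of SRSF1, HNRNPL, HNRNPH2 and HNRNPUL2-BSCL2, so levels are given below as CPM per kilobase of sequence not shared with another gene of the same strand.

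The tested SR and HNRNP genes were transcribed at high levels. Their median was 11.5 CPM per kilobase in DMSO, against 1.12 for all 12612 tested genes, and 30 of the 35 were in the top 10% of that ranking. Members are shorter than most tested genes (median 15961 against 36150 bases), which raises this measure. In CPM, which is not divided by length, the medians were 195 and 35.4. HNRNPA1L2, HNRNPA1L3, HNRNPH2, HNRNPUL2-BSCL2 and SRSF8 were below the CPM median of all tested genes. SRSF2, which binds exonic enhancers and also acts in transcription elongation, had the highest level, with 51.7 and 56.6 CPM per kilobase with DMSO and 53.4 and 51.4 with dTAG. HNRNPA2B1, an A/B-type hnRNP of splicing and RNA transport, had 51.1 and 46.8 CPM per kilobase in DMSO and 48.1 and 54.0 in dTAG. SRSF1, the prototype SR protein, had 42.8 and 46.7 in DMSO and 43.6 and 37.7 in dTAG. HNRNPA1 came next with 37.7 and 43.7 in DMSO, a range that overlapped that of SRSF1. At the low end stood HNRNPLL, known from T cell activation, with 1.41 and 1.19 CPM per kilobase in DMSO and 1.37 and 1.44 in dTAG. The HNRNPA1 copy HNRNPA1L2 had 1.22 and 1.09 in DMSO and 0.984 and 1.31 in dTAG. HNRNPA1L3, another such copy, had 0.337 and 0.278 in DMSO and 0.304 and 0.320 in dTAG. It was the single member below the median of all tested genes in CPM per kilobase. The interval over which HNRNPA1L3 was counted is 93698 bases long, which lowers its level per kilobase. In CPM it had 31.5 and 26.0 in DMSO, where HNRNPA1L2, counted over 3012 bases, had 3.66 and 3.28. Whether reads of HNRNPA1 and its copies, or of SRSF2 and its intronless copy SRSF8, were assigned to the right gene was not tested.

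The order of levels was kept between conditions. In the ranking by CPM per kilobase no gene moved by more than 2 places between DMSO and dTAG, and of 34 neighbouring pairs in the DMSO ranking 13 had overlapping DMSO libraries and so did not differ beyond their spread. The share of gene counts taken by the 41 genes together was 0.797% and 0.811% in the DMSO replicates, and in the dTAG replicates it was 0.793% and 0.819%, ranges that overlap.

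**Figure D1:**
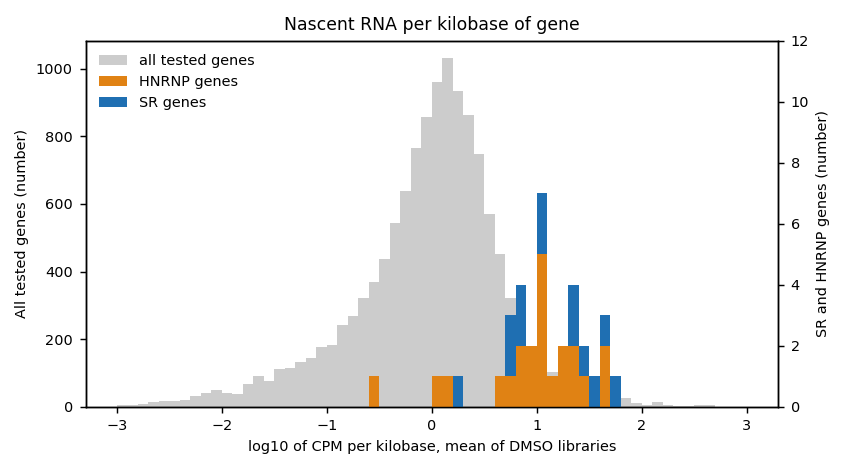
Distribution of nascent RNA levels, as log10 of CPM per kilobase of unshared gene length averaged over the 2 DMSO libraries, for 12612 tested genes (grey, left axis) and for the 22 HNRNP genes (orange) and 13 SR genes (blue) stacked on the right axis. Of these 35 genes, 30 lie in the top 10% of all tested genes and 1, HNRNPA1L3, counted over 93698 bases, lies below the median.

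None of the 35 genes passed an adjusted p of 0.05 between dTAG and DMSO in edgeR's quasi-likelihood test (0 higher and 0 lower, with 1 called by DESeq2), where 7.1% of all tested genes did, 434 higher (3.44%) and 461 lower (3.66%). With upper-quartile in place of TMM normalization the calls over all genes were 255 higher and 869 lower, and again none was a member. At an unadjusted p of 0.05, 2 members passed, HNRNPF and HNRNPR, against 26.6% of all tested genes. The log2 fold changes of the 35 genes ran from -0.17 (SRSF8) to 0.24 (HNRNPF) with a median of 0.05, where all tested genes had a median of -0.01 and their 5th and 95th percentiles were -0.45 and 0.30. The median for the SR genes was 0.03 and for the HNRNP genes 0.06. The median size of the change, without sign, was 0.10 for the 35 genes and 0.15 for all tested genes.

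The intervals limit what could have been missed. For all 35 genes the 95% confidence interval of the change lay within 1.5-fold in either direction, and the outermost bounds were -0.42 for HNRNPA1L2 and 0.44 for HNRNPF on the log2 scale. Of all tested genes, 79.3% had such an interval. The members are deeply counted, with 297 to 94432 counts per library, and among the 6980 genes between the 10th and 90th percentile of the members' CPM the share was 96.0%. These bounds hold relative to other genes, and they use a variance estimated in part from all tested genes together. With a factor from the ERCC spike-ins as covariate, 34 of the 35 intervals lay within 1.5-fold, beside 78.7% of all tested genes. With ERCC totals as library sizes the median of all tested genes was 0.63 and that of the members 0.70. Each member lay between 0.48 and 0.89, no interval of any member lay within 1.5-fold, and no gene of the 12612 was called. The ERCC reads varied within conditions. DMSO replicate 1 had 14798 and DMSO replicate 2 had 25165, whereas dTAG replicate 1 had 13870 and dTAG replicate 2 had 9551. DMSO replicate 1 was thus nearer to dTAG replicate 1 than to its own replicate. By the paper's methods the spike-in went into a roughly fixed mass of purified nascent RNA. ERCC scaling therefore cannot show whether nascent RNA per cell changed.

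**Figure D2:**
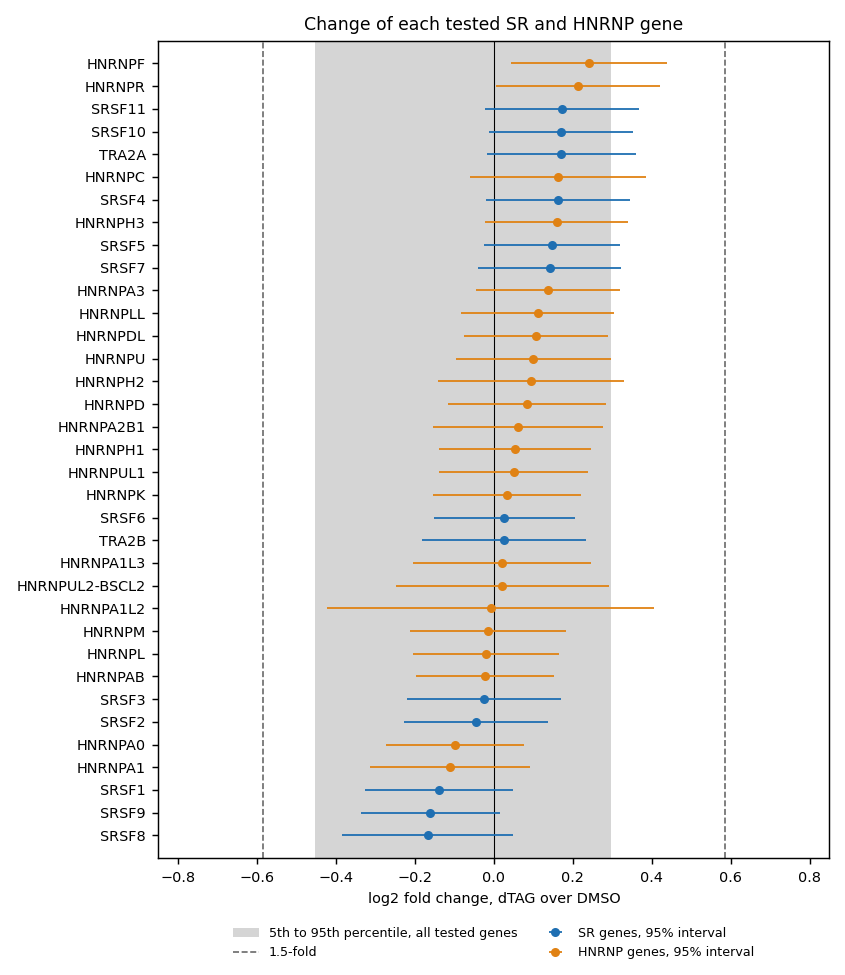
Log2 fold change of nascent RNA, dTAG over DMSO with TMM normalization, for each of the 35 tested SR (blue) and HNRNP (orange) genes, with bars for the 95% confidence interval from the quasi-likelihood fit (n = 2 libraries per condition). The grey band spans the 5th to 95th percentile of 12612 tested genes, dashed lines mark 1.5-fold, and every bar stays between them, although with ERCC totals as library sizes all 35 values are positive, from 0.48 to 0.89.

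The 6 members with the smallest p were HNRNPF, HNRNPR, SRSF10, SRSF9, TRA2A and SRSF4. HNRNPF (ENSG00000169813, chr10:43385616-43409166 in hg38), which binds G-rich RNA, had 375 and 390 CPM with DMSO and 463 and 442 with dTAG. Both dTAG libraries were above both DMSO libraries, a log2 fold change of 0.24 ± 0.095 (SE), or 1.18-fold with a 95% interval of 1.03 to 1.36, and the adjusted p was 0.115. HNRNPF passed in 7 of 16 alternative analyses, among them DESeq2 (0.25, adjusted p = 0.034), the ERCC factor as covariate (0.26, adjusted p = 0.0056) and removal of GC and length trends (0.30, adjusted p = 2.7e-04), and its value was positive in all 16, from 0.17 to 0.89. Its adjusted p ranged over these analyses from 2.7e-04 to 0.941. Without 1 library its log2 fold change stayed between 0.21 and 0.28. It passed in the fits where the dTAG pair alone gave the spread (adjusted p = 0.022 without DMSO replicate 1 and 0.013 without DMSO replicate 2), and did not pass where the DMSO pair alone gave it (0.701 without dTAG replicate 1 and 0.941 without dTAG replicate 2).

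HNRNPR, a relative of the RNA-binding protein SYNCRIP, had 336 and 289 CPM in DMSO and 347 and 379 in dTAG. The dTAG libraries were again the higher pair, but the DMSO replicates differed from each other by more than dTAG replicate 1 differed from DMSO replicate 1. Its log2 fold change was 0.21 ± 0.10 (SE) with an adjusted p of 0.175, and with the ERCC factor as covariate it was -0.03. It was 0.33 without DMSO replicate 1, where it passed with the spread of the dTAG pair alone (adjusted p = 2.2e-04), and 0.11 without DMSO replicate 2 (0.404). It also passed with crossed replicate numbers (adjusted p = 0.030), and it was 0.10 with GC and length trends removed (0.126).

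SRSF10, an SR protein that acts as a splicing repressor when dephosphorylated, had 199 and 195 CPM in DMSO and 215 and 228 in dTAG, a log2 fold change of 0.17 ± 0.088 (SE, adjusted p = 0.217). SRSF4, a large SR protein, had 193 and 192 CPM in DMSO and 208 and 222 in dTAG, a log2 fold change of 0.16 ± 0.088 (SE, adjusted p = 0.237). TRA2A, which binds GAA-rich enhancers, had 210 and 200 CPM in DMSO and 219 and 243 in dTAG, a log2 fold change of 0.17 ± 0.091 (SE, adjusted p = 0.233). In each of these genes both dTAG libraries were above both DMSO libraries, and no difference passed the test. SRSF9 was the one of the 6 with lower values in dTAG, with 86.5 and 91.8 CPM in DMSO and 82.8 and 76.6 in dTAG, a log2 fold change of -0.16 ± 0.085 (SE, adjusted p = 0.225).

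The groups did not overlap in 17 of the 35 genes (48.6%), with dTAG higher in 13 and lower in 4, while 58.8% of all tested genes had groups that did not overlap, 28.1% with dTAG higher and 30.7% with dTAG lower. The 4 with dTAG lower were HNRNPA0, SRSF3, SRSF8 and SRSF9. SRSF3, the smallest SR protein, had 405 and 417 CPM in DMSO and 403 and 405 in dTAG, so that the nearest libraries of the 2 conditions were almost equal. The number of positive values among the 35 depended on the scaling, with 24 under TMM, 16 under upper-quartile normalization, 12 with the ERCC factor as covariate and 35 with ERCC totals as library sizes.

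**Figure D3:**
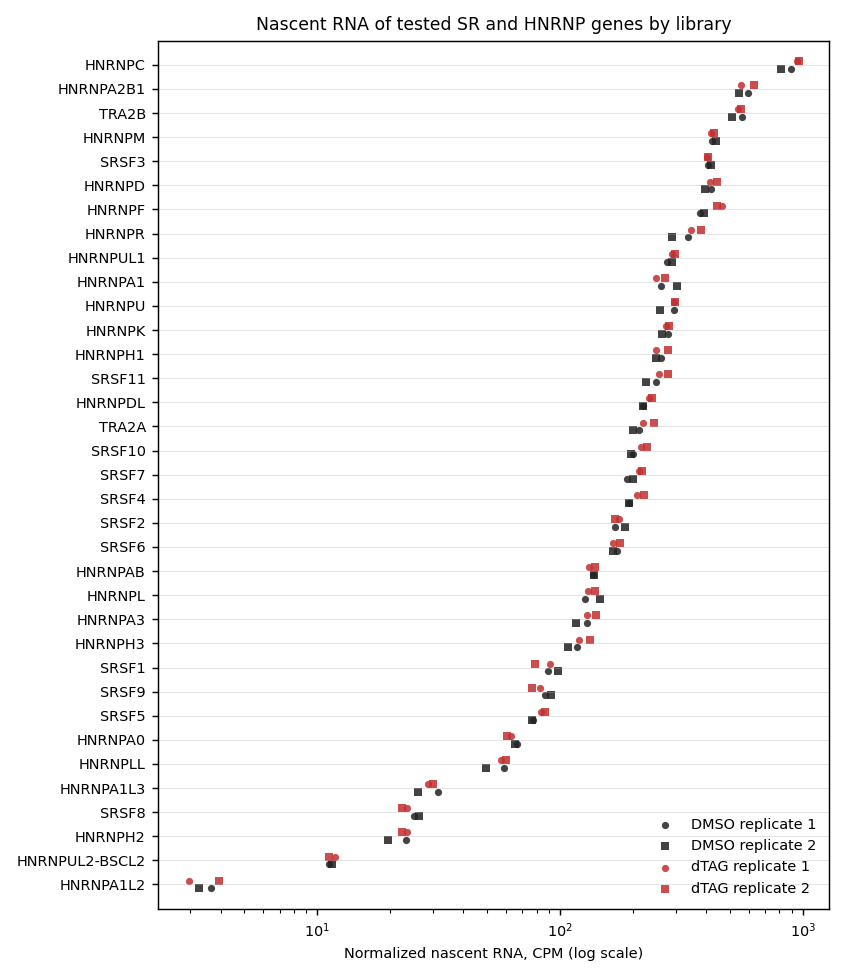
Nascent RNA of the 35 tested genes in each of the 4 libraries, in TMM-normalized CPM on a log axis, with DMSO replicates in black and dTAG replicates in red (circles replicate 1, squares replicate 2) and genes ordered by their DMSO mean. Values of 1 gene lie close together against the range between genes, from HNRNPA1L2, at 3.66 and 3.28 CPM in DMSO, to HNRNPC, at 893 and 809.

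Among the SR genes that bind enhancers, 4 of the remaining members had groups that overlapped. SRSF1 had 89.5 and 97.8 CPM in DMSO and 91.2 and 78.9 in dTAG, and SRSF2 had 168 and 184 in DMSO and 174 and 168 in dTAG, with overlapping groups in both. SRSF6 had 171 and 165 CPM in DMSO and 165 and 177 in dTAG. TRA2B, which with TRA2A activates exons with GAA-rich enhancers, had 560 and 512 in DMSO and 538 and 554 in dTAG. SRSF7, a partner of SRSF3 in mRNA export through NXF1, had 190 and 200 CPM in DMSO and 212 and 218 in dTAG. SRSF5 had 77.2 and 76.8 in DMSO and 83.4 and 87.1 in dTAG, and SRSF11 had 249 and 226 in DMSO and 256 and 279 in dTAG. In these last 3 both dTAG libraries were the higher pair, and none passed the test. The interval over which SRSF5 was counted is 45107 bases long, which lowers its level per kilobase.

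The HNRNP genes that coat nascent transcripts as core particle proteins had broad overlap between conditions or small shifts. HNRNPA1 had 260 and 302 CPM in DMSO and 248 and 271 in dTAG, and HNRNPA2B1 had 593 and 543 in DMSO and 558 and 627 in dTAG. HNRNPC, whose protein binds uridine tracts, was the member with the most CPM, 893 and 809 in DMSO and 942 and 963 in dTAG. The dTAG libraries of HNRNPC were above the DMSO libraries, while those of the A/B-type genes overlapped. Of the KH-domain and G-tract binding members, HNRNPK had 278 and 263 CPM in DMSO and 274 and 280 in dTAG, and HNRNPH1 had 260 and 249 in DMSO and 249 and 278 in dTAG. HNRNPM, a splicing regulator of epithelial and mesenchymal isoforms, had 422 and 438 in DMSO and 419 and 432 in dTAG. HNRNPU, a scaffold protein that binds RNA and chromatin, had 294 and 259 in DMSO and 294 and 298 in dTAG. Groups overlapped in HNRNPK, HNRNPH1 and HNRNPM. HNRNPD, which binds AU-rich elements, had 419 and 394 CPM in DMSO and 416 and 445 in dTAG, and its neighbour on chromosome 4, HNRNPDL, had 219 and 219 in DMSO and 233 and 239 in dTAG.

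Close relatives within the families mostly had unequal levels per kilobase of unshared sequence, a measure that also depends on the length counted. Per kilobase in DMSO, SRSF2 stood at 54.1 ± 3.5 (SD, n = 2) and its retrotransposed relative SRSF8 at 6.38 ± 0.21, a ratio of 8.48 that was 9.23 in dTAG. SRSF1 stood at 44.7 and SRSF9, its nearest relative, at 10.97, with a ratio of 4.08 in DMSO and 4.14 in dTAG. HNRNPL stood at 11.2 and HNRNPLL at 1.30, with a ratio of 8.62 in DMSO and 7.88 in dTAG. TRA2A was the lower of its pair, at 7.53 against 24.1 for TRA2B, and SRSF4 the lower of the next, at 5.61 against 26.5 for SRSF6. SRSF3 (36.6) was above SRSF7 (24.7), HNRNPU (11.5) above HNRNPUL1 (6.28), HNRNPK (21.6) above HNRNPC (14.1) and HNRNPDL (27.9) above HNRNPD (18.5). HNRNPH1 at 12.3 ± 0.40 and HNRNPH2 at 11.7 ± 1.4 (SD, n = 2) were the single pair of the 12 compared in which DMSO libraries overlapped per kilobase. HNRNPA1 (40.7) was below HNRNPA2B1 (49.0). SRSF10 stood at 12.2, while SRSF12, with 11 and 9 counts in DMSO, stood at 0.0045. The ratio of SRSF3 to SRSF7 was 1.48 in DMSO and 1.32 in dTAG. No test of the ratios was made, so whether they differ between conditions is not known. In CPM, which is not divided by length, some orders differed. By DMSO mean, SRSF4 (192) was above SRSF6 (168), HNRNPC (851) above HNRNPK (270) and HNRNPD (406) above HNRNPDL (219). The DMSO libraries of SRSF1 and SRSF9 overlapped in CPM, as did those of HNRNPU and HNRNPUL1. The other pairs kept their order.

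The direction of the small differences went with gene length and base composition, as it did for all genes. The 12 members under 10 kb had a median of -0.03 on the log2 scale (-0.20 over the tested genes of that length), the 12 members of 10 to 25 kb had 0.07 (all -0.09), and the 11 members of 25 kb or longer had 0.15 (all 0.05). Of the 11 negative values, 8 were in genes under 10 kb, namely HNRNPA0, HNRNPA1, HNRNPA1L2, HNRNPAB, SRSF1, SRSF2, SRSF8 and SRSF9. The members are shorter than most tested genes, with a median of 15961 against 36150 bases, and lower in GC content, with 41.4% against 44.9%. Across the 35 members the log2 fold change had a Spearman correlation of 0.54 with length and -0.46 with GC content (Pearson 0.54 and -0.36), and across all 12612 genes 0.42 and -0.56. These are descriptions across genes that share the same 4 libraries. The 2 DMSO libraries differed from each other along the same axis. The log2 ratio of DMSO replicate 2 to replicate 1 had a Spearman correlation with GC content of 0.76 across the members and 0.75 across all tested genes.

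With each library's trends on GC content and length removed, the median of the 26 members under 45% GC was 0.01 where it had been 0.10, and that of the 9 members at or above 45% was 0.09 where it had been -0.02. Across the members the log2 fold change then rose with GC content (Pearson 0.40, Spearman 0.26), more than across all tested genes (0.09 and 0.09). A trend of the opposite sign thus remained among the members, and HNRNPF (47.7% GC) and HNRNPL (53.7% GC) lie on its high side. Under this setting 2 members were called, HNRNPF and HNRNPL, or 5.71% of the members, beside 17.7% of all tested genes. HNRNPL, a repressor and enhancer that binds CA repeats and was singled out after its values were seen, had 127 and 146 CPM in DMSO and 130 and 139 in dTAG. Its groups overlapped and its log2 fold change was -0.02 without the correction and 0.16 (adjusted p = 0.041) with it.

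**Figure D4:**
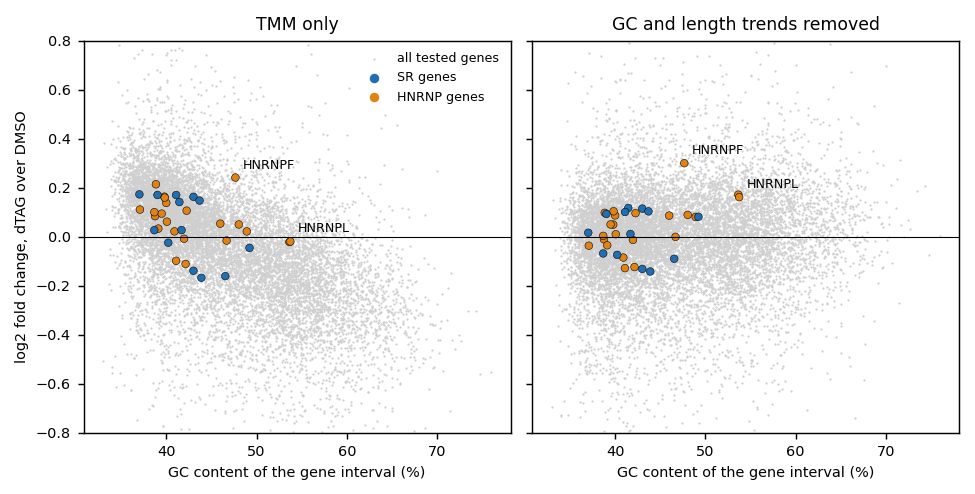
Log2 fold change, dTAG over DMSO, against the GC content of the gene interval in percent, with TMM only (left) and with each library's GC and length trends removed (right), for all tested genes (grey) and the SR (blue) and HNRNP (orange) genes. At left the values fall with GC content, with 88 of 12612 genes beyond 0.8 in either direction and outside the axis, and at right the members at or above 45% GC have a median of 0.09, HNRNPF standing highest at 0.30.

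The share of members called was at or below that of all tested genes in each of 16 alternative analyses. It was 0% in 9 of them, where the share of all tested genes was 12.6% with a likelihood ratio test, 8.91% with upper-quartile normalization, 6.05% with a minimum of 10 counts, 8.12% with no minimum, 7.74% for genes with no overlap, 2.7% with a replicate block and 0.0% with ERCC totals, besides the 2 settings that leave out a dTAG library. It was 2.86% (HNRNPF) with DESeq2, where 9.93% of all tested genes were called, and with the ERCC factor, where 9.13% were. Leaving out a library leaves its group with 1 library, which is then assumed to vary like the other group, so that the remaining pair alone gives the spread. Over all tested genes the median size of the log2 difference between replicates was 0.15 in DMSO and 0.076 in dTAG (0.086 and 0.079 over the members). Without DMSO replicate 1, 14 of 35 members were called (11 higher and 3 lower, 40.0%), among 43.4% of all tested genes, whereas without dTAG replicate 1 or dTAG replicate 2 no member was called, among 1.09% and 0.535% of all genes. In those last settings 29 and 33 of the 35 intervals lay within 1.5-fold.

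**Figure D5:**
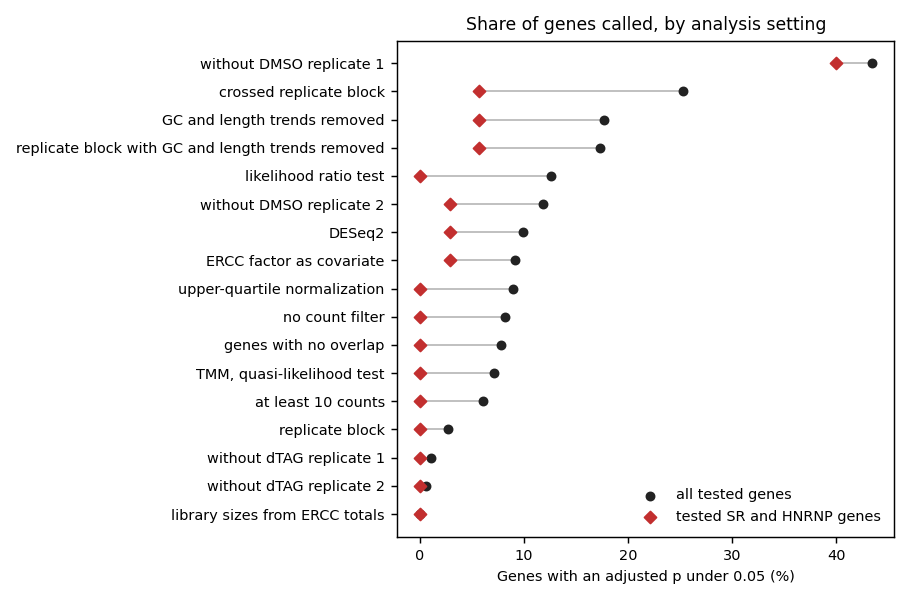
Percent of genes with an adjusted p under 0.05 between dTAG and DMSO for all tested genes (black circles) and the tested SR and HNRNP genes (red diamonds) under the main analysis, named by its TMM scaling and quasi-likelihood test, and 16 alternatives. The members' share is at or below that of all tested genes in each, and it reaches 40.0% without DMSO replicate 1, where the dTAG pair alone gives the spread and 43.4% of all genes were called.

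The promoter windows of the members were read from RefSeq (GRCh38.p14) to see which features the symbol rule brings together. Of the 35 tested genes, 31 matched, with 45 windows of 300 bases, from 250 before to 50 after the start. Among them 19 (61.3%) held CCAAT on either strand, as did 43.5% of the 10051 tested genes with a window, and 22 (71.0%) held GGGCGG, as did 77.9%. CACGTG, the E-box letters, was in 7 (22.6% against 12.5%), namely HNRNPA3, HNRNPD, HNRNPDL, HNRNPH2, HNRNPH3, HNRNPM and HNRNPUL1. CCGGAAGT was in 3 (9.68% against 9.75%), while TGACGTCA, the CRE letters, was in none of the members' windows (3.83% of all). A match of letters is a description of the window and does not show that a factor binds there.

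The members with the highest and the lowest log2 fold change, HNRNPF and SRSF8, are shown beside each other because they stand at the 2 ends of the range, with capitals at CCAAT and GGGCGG on either strand and the 250 bases before the start given. In its richest window of 300 bases SRSF8 held 3 CpG dinucleotides, the fewest among the 31 members, for which the median was 30. HNRNPF is at chr10:43408858-43409107 (minus strand), with 72.4% GC and 25 CpG dinucleotides in 250 bases. SRSF8 is at chr11:95066627-95066876 (plus strand), with 33.6% GC and 2 CpG dinucleotides.
HNRNPF: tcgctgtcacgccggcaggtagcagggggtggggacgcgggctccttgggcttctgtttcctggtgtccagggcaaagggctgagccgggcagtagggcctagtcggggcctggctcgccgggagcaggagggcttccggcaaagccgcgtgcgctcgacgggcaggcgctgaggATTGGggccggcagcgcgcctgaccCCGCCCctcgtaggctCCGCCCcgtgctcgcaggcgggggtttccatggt
SRSF8: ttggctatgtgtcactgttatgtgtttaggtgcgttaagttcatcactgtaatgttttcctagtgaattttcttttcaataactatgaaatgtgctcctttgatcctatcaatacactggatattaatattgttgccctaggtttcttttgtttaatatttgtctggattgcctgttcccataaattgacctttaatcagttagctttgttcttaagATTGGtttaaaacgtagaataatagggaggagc
In the stretches shown, HNRNPF holds CCAAT in reverse once and GGGCGG in reverse at 2 places, and SRSF8 holds CCAAT in reverse once. Each of these genes has 2 windows in the table, of which the one with the start farthest upstream is shown. The other window of HNRNPF holds CCAAT in reverse at -58 and GGGCGG in reverse at -233 and -142 from its start. SRSF8 had 25.1 and 26.3 CPM in DMSO and 23.4 and 22.4 in dTAG, a log2 fold change of -0.17 with a 95% interval of -0.39 to 0.05.

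Transcripts marked for nonsense-mediated decay, the fate of transcripts with a poison exon, were common among the members. In GENCODE 44, 28 of the 35 tested members (80.0%) had at least 1 transcript marked for nonsense-mediated decay, as did 48.0% of the tested genes found there. This held for 13 of 13 SR genes and 15 of 22 HNRNP genes. These include the intronless copy SRSF8 and the read-through gene HNRNPUL2-BSCL2, whose 1 annotated transcript is so marked. The mark therefore does not by itself show a poison exon. HNRNPF, HNRNPAB, HNRNPA0, HNRNPH2, HNRNPH3, HNRNPA1L2 and HNRNPA1L3 had none. The members had a median of 12 annotated transcripts and all tested genes 8, and the part of this difference in the share was not tested. Counts over whole genes do not separate these transcripts.

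The machinery that acts on these proteins was followed in 5 lists with 84 symbols, of which 79 genes were tested and 4 were called (5.06%, beside 7.1% of all tested genes). Intervals of all 79 lay within 1.5-fold. Of the kinases and phosphatases that control the phosphorylation of SR proteins 0 of 13 were called. Their median was 0.07, with a range of -0.28 to 0.22. At an unadjusted p of 0.05 2 of them passed (15.4%, beside 26.6% of all tested genes), and with DESeq2 0 were called (beside 9.93%). Of the decay factors 0 of 14 were called, with a median of 0.08 and a range of -0.10 to 0.21. At an unadjusted p of 0.05 1 of them passed (7.14%, beside the same 26.6%), and with DESeq2 0 were called. NXF1, the export receptor that SRSF3 and SRSF7 recruit, was the 1 called of 6 import and export factors (16.7%, beside 7.1% of all). It had 40.6 and 47.3 CPM in DMSO and 34.6 and 34.7 in dTAG. It fell by 0.34 ± 0.098 on the log2 scale (SE, adjusted p = 0.040), while with ERCC totals as library sizes its value was 0.33 and with the ERCC factor as covariate -0.22 (adjusted p = 0.146).

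Among 24 SR-related proteins 2 were called (8.33%, beside 7.1% of all tested genes), with a list median of 0.09. CCNL1 (cyclin L1), a regulatory partner of CDK11 kinases, had 186 and 176 CPM in DMSO and 219 and 230 in dTAG, and U2SURP, which associates with the U2 snRNP, had 195 and 164 in DMSO and 218 and 235 in dTAG. Both rose, CCNL1 by 0.31 ± 0.088 (SE, adjusted p = 0.038) and U2SURP by 0.33 ± 0.097 (SE, adjusted p = 0.041) on the log2 scale. With the ERCC factor as covariate CCNL1 was at 0.18 (adjusted p = 0.047) and U2SURP at 0.066 (adjusted p = 0.525). U2SURP was at 0.19 with GC and length trends removed (adjusted p = 0.0059) and at 0.21 without DMSO replicate 2 (adjusted p = 0.036). Of 22 tested hnRNP proteins with other symbols and splicing repressors 1 was called (4.55%, beside 7.1% of all tested genes). This was PCBP1, an intronless gene for a poly(C)-binding protein of the hnRNP E group. It had 81.0 and 91.4 CPM in DMSO and 67.7 and 64.4 in dTAG, and fell by 0.38 ± 0.087 on the log2 scale (SE, adjusted p = 0.011), while with ERCC totals as library sizes its value was 0.28 and with GC and length trends removed -0.15 (adjusted p = 0.046). Of 16 alternative analyses, the call was lost in 6 for NXF1, in 5 for CCNL1, in 6 for U2SURP and in 4 for PCBP1. SRPK3, PPP2CA, TARDBP, CELF2 and SMG8 were not tested, nor was the second of the 2 identifiers with the symbol MATR3.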

How the data were processed

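TT-Seq reads were trimmed by the authors with Trim Galore 0.6.4, mapped to hg38 with STAR and counted over entire protein-coding genes and ERCC RNAs with featureCounts (Subread 1.6.3). The values they deposited are unnormalized counts per gene. The strand setting and the multi-mapping rule are not given in the sources used here. Symbols were matched to 19802 of 19901 Ensembl identifiers.

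A minimum of 50 counts in each of the 4 libraries left 12612 genes. Fold changes, standard errors and 95% intervals came from edgeR 4.0.16 in R 4.3.3, with TMM factors of 1.00, 1.05, 0.979 and 0.970 and a two-sided quasi-likelihood F test of dTAG against DMSO, with Benjamini-Hochberg adjustment over all tested genes and calls at an adjusted p under 0.05. Standard errors were obtained from the fold change and its F statistic. Intervals use the spread between 2 biological replicates per condition, with each gene's variance drawn towards that of all tested genes. They therefore do not rest on the replicates of that gene alone. When a library was left out, the lone library of its group was assumed to vary like the other group. In simulated data with known changes, 98.98% of the genes changed 2-fold and 83.84% of those changed 1.5-fold were recovered over 12571 genes. Of the calls, 1.64% were false. The simulated counts had 1 spread for both conditions and no trend on GC content or length, unlike the real libraries. Whether these rates hold for the real data was therefore not tested.

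The members, the gene lists, the promoter motifs and the rule for named genes were chosen with earlier results of these data known. Named genes were TRIM28, called members or else the 6 members with the smallest p, the 3 highest and 3 lowest by level, 12 pairs of relatives, and at most 3 called genes of each of 5 companion lists.

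Alternatives were DESeq2 1.42.0, ERCC totals as library sizes, upper-quartile normalization, a likelihood ratio test, an ERCC factor as covariate, a count minimum of 10 or none, genes without overlap, a replicate block, removal of GC and length trends by lowess with a span of 0.3, both of these together, a fold change of at least 1.5 for counts, and leaving out each library. A replicate block with crossed numbers was added after seeing the data. Of 7 promoter motifs searched as exact letters on both strands, the 5 of up to 8 bases are reported, and 2 of 10 bases are not reported here.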

Additional observations from a re-analysis of the deposited data

How the results depend on the processing

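Depth was not varied. The number of genes called over all tested genes was 895, and it was 1593 with a likelihood ratio test, 2227 with GC and length trends removed, 1417 without a count filter, 0 with ERCC totals as library sizes and 207 at a fold change of at least 1.5. The number of members called was 0, and it was 1 with DESeq2, 1 with the ERCC factor and 2 with GC and length trends removed, and in each case these were HNRNP genes (1, 1 and 2). No SR gene was called in any setting that kept all 4 libraries. The shares called over all tested genes were 9.93%, 9.13% and 17.7%, in the same order. With 13 SR genes and 22 HNRNP genes tested, these few calls do not set the families apart. Of the 79 tested companion genes, 4 were called (beside 7.1% of all tested genes), and 7 with DESeq2 (beside 9.93%). With the trends removed 12 were called (beside 17.7%), with ERCC totals 0 and at a fold change of at least 1.5 also 0. The cause of these shifts was not tested.

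Same-numbered libraries were not shown to come from a shared culture or day, and the deviations of DMSO replicate 1 and dTAG replicate 1 from their group means had a correlation of -0.245 across 12612 genes. With a replicate block 340 genes (2.7% of all tested) and 1 companion gene were called, and no member. With the replicate block and the GC and length trends removed, 2180 genes (17.3% of all tested), 2 members, both HNRNP genes (2), and 12 companion genes were called. The median of all tested genes was 0.0010. With crossed replicate numbers, an alternative chosen after seeing the data, 3190 genes (25.3% of all tested), 2 members, both HNRNP genes (2), and 15 companion genes were called.

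The medians of the log2 fold change depended on the scaling. With upper-quartile normalization they were -0.088 for all tested genes, -0.020 for the members, -0.047 for the SR genes, -0.016 for the HNRNP genes and -0.016 for the companion genes. With the ERCC factor as covariate they were -0.051, -0.034, -0.020, -0.058 and -0.022, and with ERCC totals 0.63, 0.70, 0.67, 0.70 and 0.71, in the same order. The median of all tested genes was -0.0025 with DESeq2, -0.022 without a count filter and 0.00078 with the trends removed. Among genes with no overlap the median of the SR genes was 0.13, but this covered 10 of the 13 tested SR genes. SRSF1, SRSF2 and SRSF9, all with negative values in the main analysis, were left out of this setting. Each SR gene that remained had a slightly lower value than in the main analysis. The higher median therefore follows the genes kept and does not show a rise in them.

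Leaving out each library gave between 68 and 5489 calls over all tested genes, 0 to 14 members, 0 to 6 SR genes, 0 to 8 HNRNP genes and 0 to 38 companion genes, the highest counts all without DMSO replicate 1. In these fits 1 group has 1 library and the other pair alone gives the spread, so the counts also follow which pair remains. The medians then ranged from -0.019 to -0.0048 for all tested genes, 0.019 to 0.11 for the members, 0.0059 to 0.092 for the SR genes, 0.015 to 0.12 for the HNRNP genes and 0.038 to 0.10 for the companion genes.

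Some named genes turned sign. With ERCC totals TRIM28 was at 0.28, SRSF9 at 0.49, SRSF1 at 0.51, SRSF2 at 0.61, HNRNPA1L2 at 0.65, NXF1 at 0.33, PCBP1 at 0.28 and HNRNPL at 0.66. With the ERCC factor HNRNPR was at -0.033, HNRNPA2B1 at -0.13, SRSF2 at 0.026, HNRNPA1L3 at -0.25, HNRNPLL at -0.13 and HNRNPL at 0.056. With GC and length trends removed SRSF2 was at 0.081, HNRNPA1L3 at -0.086, HNRNPLL at -0.037 and HNRNPL at 0.16, and with the replicate block added they were at 0.081, -0.084, -0.037 and 0.16. With upper-quartile normalization HNRNPA2B1 was at -0.012 and HNRNPA1L3 at -0.050, and with DESeq2 HNRNPA1L2 was at 0.0041. Leaving out libraries moved HNRNPA2B1 between -0.024 and 0.15, SRSF2 between -0.11 and 0.020, HNRNPA1L3 between -0.11 and 0.17, HNRNPA1L2 between -0.23 and 0.19, HNRNPLL between -0.0038 and 0.23 and HNRNPL between -0.11 and 0.080.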
